A study of Mus musculus with 18 samples.

Results

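The 7 genes described here make, cut or bind hyaluronan: Has1, Has2 and Has3, the synthases, Cemip, Hyal1 and Hyal2, which act in its breakdown, and Cd44, its main cell-surface receptor. They were found by symbol among the 45706 genes of the deposited count table, and all 7 were present. All libraries are from a single immortalised mouse line, BMC, whose brown preadipocytes had been turned into brown adipocytes, a heat-producing kind of fat cell. All cells received a differentiation cocktail with insulin, triiodothyronine, dexamethasone, indomethacin and isobutylmethylxanthine, and were used on day 7. The 18 libraries carry 3 labelled times, with replicate numbers 1 to 6 at each. Those labelled 0 h are differentiated cells without norepinephrine, and those labelled 4 h and 24 h received 1 µM norepinephrine, the sympathetic transmitter that starts lipolysis. The series asks which transcripts change at those times.

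Hyaluronan is a long unbranched sugar polymer of the matrix around cells. Synthases in the plasma membrane build it from UDP-glucuronic acid and UDP-N-acetylglucosamine and extrude it as it grows. HYAL2 at the cell surface and HYAL1 in lysosomes cut the chain, CEMIP is needed for its depolymerisation by skin fibroblasts in humans, and CD44 anchors it to the cell and takes part in its uptake. In adipose tissue hyaluronan is part of the matrix that surrounds fat cells and their precursors.

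The 250 bases before the annotated start of 3 members are shown because these genes mark the extremes of the group: Cemip differed most between libraries, Cd44 was the most abundant and Has1 was nearly silent. They come from RefSeq, build GRCm38.p6, which held a promoter for 5 of the 7 members. All 3 lie on the minus strand, and capitals mark matches to the motifs searched.
Cemip (chr7:84086506-84086755): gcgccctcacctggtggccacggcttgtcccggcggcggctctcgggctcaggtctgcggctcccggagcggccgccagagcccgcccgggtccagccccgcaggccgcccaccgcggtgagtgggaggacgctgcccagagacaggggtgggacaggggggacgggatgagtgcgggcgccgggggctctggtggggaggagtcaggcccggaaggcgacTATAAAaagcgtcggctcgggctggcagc
Cd44 (chr2:102901666-102901915): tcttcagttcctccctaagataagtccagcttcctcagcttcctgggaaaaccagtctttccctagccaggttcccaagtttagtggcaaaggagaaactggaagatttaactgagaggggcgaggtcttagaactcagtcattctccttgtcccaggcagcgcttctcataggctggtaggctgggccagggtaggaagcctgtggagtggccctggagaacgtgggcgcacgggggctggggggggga
Has1 (chr17:17855189-17855438): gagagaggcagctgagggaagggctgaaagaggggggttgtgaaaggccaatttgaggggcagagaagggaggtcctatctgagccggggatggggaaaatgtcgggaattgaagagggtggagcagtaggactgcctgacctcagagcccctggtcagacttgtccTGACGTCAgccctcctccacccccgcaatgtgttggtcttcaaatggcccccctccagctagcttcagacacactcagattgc

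Both strands were searched for the full cAMP response element TGACGTCA, its shorter form TGACG, which lies within it, the AP-1 site TGANTCA, the E-box CACGTG and the TATA box TATAAA. The Has1 window held the full cAMP response element 83 to 76 bases before the start, a match found in 1.55% of the 32851 windows of this length in the same table. The Cemip window held a TATA box 29 to 24 bases before the start, as did 12.4% of windows with this motif at any place. Neither the Cd44 window nor those of Hyal1 and Hyal2 held any of these letters. Of the bases, 75.2% were G or C in the Cemip window, 58.0% in that of Has1 and 56.4% in that of Cd44. A match describes the letters only.

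Totals ranged from 7010742 to 26501223 expected counts per library. The lowest belonged to 24 h replicate 5, in which transcripts that collect ribosomal RNA reads took 41.5% of counts, against 6.78% to 10.6% in the other 17 libraries. Adipoq, the adiponectin gene and a marker of adipocytes, had medians of 787, 590 and 438 CPM (counts over the scaled library total, as a rate per 1e6 counts) in the libraries numbered 3 and 6, 2 and 5, and 1 and 4. The thermogenic marker Ucp1 had 1.80, 10.7 and 15.6 CPM in the same order, so brown adipocyte markers did not all go one way. The macrophage marker Adgre1, the endothelial marker Cdh5 and the myogenic marker Myod1 had 0 counts in all libraries. Other markers of these cells were detected at low levels. The 4 myogenic markers summed to at most 4.20 CPM, nearly all Acta1. The 6 macrophage markers summed to at most 4.23 CPM, mostly Cd68, and the 4 endothelial markers to at most 1.48 CPM. The libraries went together by replicate number rather than by labelled time. Deviations from the means of the labelled times correlated with medians of 0.590 for libraries of the same number and 0.569 for numbers 3 apart, and -0.270 for other numbers (18, 18 and 72 pairs). The numbers are therefore described as 3 sets of 6 libraries (3 and 6, 2 and 5, 1 and 4), each with 2 libraries of every labelled time. Fos, an immediate early gene that adrenergic stimulation induces, had medians of 3.20 CPM in numbers 3 and 6, 5.43 in numbers 2 and 5 and 189 in numbers 1 and 4. For Nr4a1, another such gene, the medians were 5.83, 10.2 and 111 CPM in the same order. Both genes were thus higher in numbers 1 and 4 at every labelled time. They belong to a list of 5 stimulation genes with Ucp1, Dio2 and Ppargc1a, which did not all follow this pattern. Dio2 had medians of 0.538, 0.278 and 2.49 CPM in the same order of sets. Ppargc1a had 131, 114 and 131 CPM, and its libraries in numbers 3 and 6 overlapped those in numbers 1 and 4. The labels do not say what a number stands for, and the labelled times may not be the times the cells received. Each result by labelled time below holds for the labels only. The genes were proposed with these libraries' values in view, including differences between the sets, so set differences are given as a description with no test.

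Of the 7 members, 6 passed the filter on low counts, and Has1 did not. The sets did not overlap for 4 of these 6 in numbers 3 and 6 against 1 and 4, all higher. Among all 14788 genes kept 38.6% did not overlap in that comparison, 19.1% higher and 19.5% lower. In numbers 2 and 5 against 1 and 4, 3 members were higher and 1 lower without overlap, where 35.3% of all genes did not overlap (17.4% higher, 18% lower). In numbers 3 and 6 against 2 and 5, 3 members were higher and none lower, beside 29.8% of all genes (14.2% higher, 15.5% lower). A fitted log2 difference of at least 1 in size was found for 2, 2 and 1 members in these 3 comparisons, beside 7%, 6.38% and 5.66% of all genes. Non-overlap was common across the table, the members were proposed with set differences known, and nothing particular to hyaluronan genes is read from these counts. Set membership accounted for 84.4% of the variance of log2 CPM over the 18 libraries in Has2, 56.0% in Has3, 91.6% in Cemip, 81.4% in Hyal1, 86.6% in Hyal2 and 94.4% in Cd44, beside a median of 62.7% over all genes. Labelled time accounted for at most 4.56% in the members other than Has3, which had 24.7%. The median over all genes was 3.78%.

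**Figure D1:**
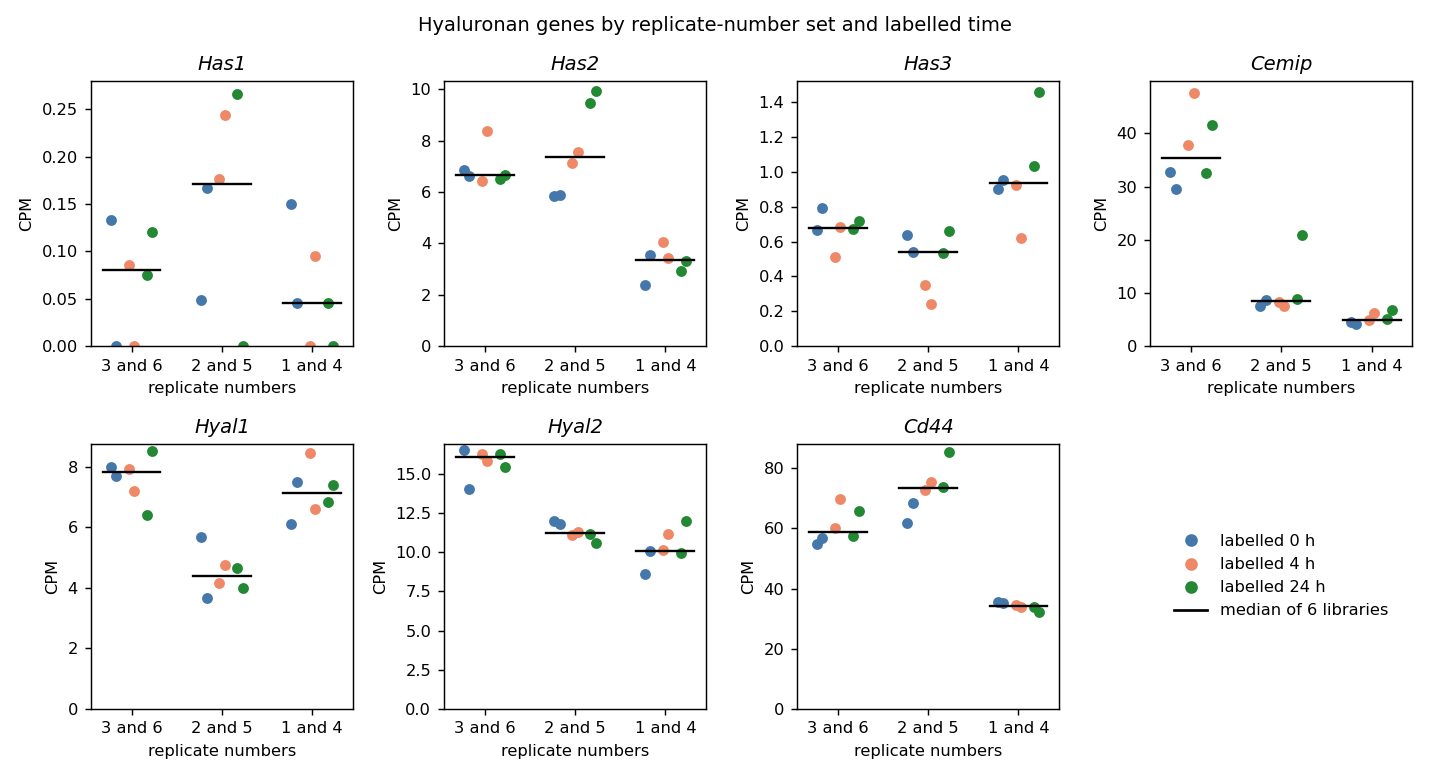
Level of each hyaluronan gene in CPM (linear vertical axes from 0) in the libraries numbered 3 and 6, 2 and 5, and 1 and 4. Points are single libraries coloured by labelled time and lines are medians of 6 libraries. Cemip stood highest in numbers 3 and 6, where its lowest library had 29.6 CPM, and Has2 and Cd44 were lowest in numbers 1 and 4.

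Among the synthases, Has2 carried nearly all of the transcript, and it was higher in numbers 3 and 6 and in numbers 2 and 5 than in numbers 1 and 4. Per kilobase of exon, Has2 averaged 1.40 ± 0.529 CPM over the 18 libraries, Has3 0.112 ± 0.0430 and Has1 0.0203 ± 0.0187 (SD, n = 18). Has2 (chromosome 15, 56665627 to 56694539, mm10, minus strand) encodes the synthase of the embryonic heart and of most mesenchymal cells. Its lowest, median and highest levels were 6.42, 6.66 and 8.37 CPM in numbers 3 and 6. They were 5.84, 7.35 and 9.95 CPM in numbers 2 and 5, and 2.36, 3.37 and 4.05 CPM in numbers 1 and 4. No library of numbers 1 and 4 reached the lowest library of either other set, while the other sets overlapped each other. The fitted log2 difference was 1.08 for numbers 3 and 6 against 1 and 4, a 2.11-fold higher level. For numbers 2 and 5 against 1 and 4 it was 1.18, or 2.27-fold. Within numbers 2 and 5 the labelled times stood apart: the libraries had 5.84 and 5.88 CPM at 0 h, 7.15 and 7.56 CPM at 4 h, and 9.46 and 9.95 CPM at 24 h. The 9.95 CPM is from 24 h replicate 5, the library rich in ribosomal RNA, and rests on 30 counts. With only 2 libraries per labelled time, this order was not tested. No such order appeared in numbers 3 and 6, with 6.86 and 6.63 CPM at 0 h, 6.42 and 8.37 CPM at 4 h, and 6.53 and 6.68 CPM at 24 h. Nor did it in numbers 1 and 4, with 2.36 and 3.54 CPM at 0 h, 4.05 and 3.42 CPM at 4 h, and 2.93 and 3.31 CPM at 24 h. Has2os, an antisense transcript that shares 182 bases of exon with Has2 on the other strand, had only 47 counts in the whole series.

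Has3 ran the other way at a far lower level, and its sets overlapped. Has3 (chromosome 8, 106870242 to 106884566, plus strand) encodes a synthase that makes shorter chains in cell culture. It had 0.514, 0.676 and 0.794 CPM (lowest, median and highest) in numbers 3 and 6, 0.244, 0.538 and 0.663 in numbers 2 and 5, and 0.618, 0.938 and 1.46 in numbers 1 and 4. The fitted log2 differences were -0.52 for numbers 3 and 6 and -0.95 for numbers 2 and 5, each against 1 and 4. These levels rest on 252 counts over 18 libraries, so single libraries held from 2 to 24 counts. In the neighbouring Chtf8, which shares 352 bases of exon on the other strand, the medians were 69.1, 65.8 and 53.6 CPM in the same order of sets. If the counting ignored strand, reads of Chtf8 could have entered Has3.

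Has1 (chromosome 17, 17843323 to 17855205, minus strand), the third synthase, had 35 counts in all. It had 0 counts in 5 libraries and at most 6 in the others. The counts summed to 10, 17 and 8 in numbers 3 and 6, 2 and 5, and 1 and 4, from 119468557, 98216789 and 120906374 counts in all. At 3 counts per library, the floor lay between 0.112 and 0.995 CPM, the highest in 24 h replicate 5. Has1 lay near this floor, and differences in it were not tested.

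Of the genes of breakdown, Cemip differed more between sets than any other member. Cemip (chromosome 7, 83932857 to 84086502, minus strand) encodes a secreted and membrane-associated protein that binds hyaluronan. Its levels were 29.6, 35.3 and 47.7 CPM (lowest, median and highest) in numbers 3 and 6, 7.55, 8.51 and 20.9 CPM in numbers 2 and 5, and 4.22, 4.93 and 6.82 CPM in numbers 1 and 4. None of the 3 sets overlapped another. Against numbers 1 and 4, Cemip was 7.05-fold higher in numbers 3 and 6 (log2 2.82) and 1.83-fold higher in numbers 2 and 5 (log2 0.88). In numbers 3 and 6 it was 3.84-fold higher than in numbers 2 and 5 (log2 1.94). Among all 14788 genes, 99.9% had a smaller signed difference in the first of these comparisons, 95.8% in the second and 99.7% in the third. The difference of numbers 3 and 6 from 1 and 4 was 2.80 at the labelled time 0 h, 2.93 at 4 h and 2.63 at 24 h. The highest value of numbers 2 and 5, 20.9 CPM, came from 24 h replicate 5, the library rich in ribosomal RNA, while the other 5 lay between 7.55 and 8.80 CPM. Without that library the log2 difference of numbers 2 and 5 from 1 and 4 was 0.68.

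Hyal2 was highest in numbers 3 and 6, and Hyal1 was lowest in numbers 2 and 5. Hyal2 (chromosome 9, 107567945 to 107572779, plus strand) encodes an enzyme anchored to the cell surface that cuts long chains into fragments. It had 14.02, 16.1 and 16.5 CPM (lowest, median and highest) in numbers 3 and 6, 10.6, 11.2 and 12.02 CPM in numbers 2 and 5, and 8.58, 10.1 and 11.97 CPM in numbers 1 and 4. Numbers 3 and 6 lay above both other sets, by a fitted log2 difference of 0.63 over numbers 1 and 4 and 0.45 over numbers 2 and 5. Those other sets overlapped, with a log2 difference of 0.18 for numbers 2 and 5 against 1 and 4.

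Hyal1 (chromosome 9, 107576927 to 107581710, plus strand), a few kilobases downstream of Hyal2, encodes the lysosomal enzyme that cuts the fragments further. It had 6.41, 7.81 and 8.52 CPM in numbers 3 and 6, 3.67, 4.41 and 5.69 CPM in numbers 2 and 5, and 6.11, 7.12 and 8.45 CPM in numbers 1 and 4. Numbers 2 and 5 lay below both other sets. The log2 difference was -0.64 for numbers 2 and 5 against 1 and 4, and 0.75 for numbers 3 and 6 against 2 and 5. It was 0.11 for numbers 3 and 6 against 1 and 4, which overlapped. Of the 3777 bases of Hyal1 exons, 1920 are also exon of Naa80 on the same strand and 159 of Hyal3. Expected counts there are divided by estimation, so the values of Hyal1 are uncertain. Naa80 had medians of 18.7, 14.5 and 17.5 CPM in numbers 3 and 6, 2 and 5, and 1 and 4, also lowest in numbers 2 and 5, and the part of these shared reads in the Hyal1 difference was not tested.

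Cd44, the receptor, was the most abundant member and was lower in numbers 1 and 4 than in either other set. Per kilobase of exon it averaged 8.26 ± 2.58 CPM (SD, n = 18), above 70.2% of the 14702 genes kept that had a length, while Hyal2 stood above 48.2%, Hyal1 above 30.1%, Cemip above 27.1%, Has2 above 26.8% and Has3 above 1.73%. Cd44 (chromosome 2, 102811141 to 102901665, minus strand) had 54.8, 58.7 and 70.0 CPM in numbers 3 and 6, 61.8, 73.3 and 85.5 CPM in numbers 2 and 5, and 32.1, 34.3 and 35.5 CPM in numbers 1 and 4. All 6 libraries of numbers 1 and 4 lay below the lowest library of the other sets, which overlapped. The log2 difference was 0.81 for numbers 3 and 6 and 1.06 for numbers 2 and 5, each against 1 and 4, and -0.25 for numbers 3 and 6 against 2 and 5. By labelled time, numbers 3 and 6 had 54.8 and 56.7 CPM at 0 h, 60.1 and 69.96 CPM at 4 h, and 57.4 and 65.97 CPM at 24 h. Numbers 2 and 5 had 61.8 and 68.4 CPM at 0 h, 72.7 and 75.5 CPM at 4 h, and 73.9 and 85.5 CPM at 24 h, the last from 24 h replicate 5. Numbers 1 and 4 had 35.5 and 35.3 CPM at 0 h, 34.6 and 33.9 CPM at 4 h, and 34.0 and 32.1 CPM at 24 h.

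**Figure D2:**
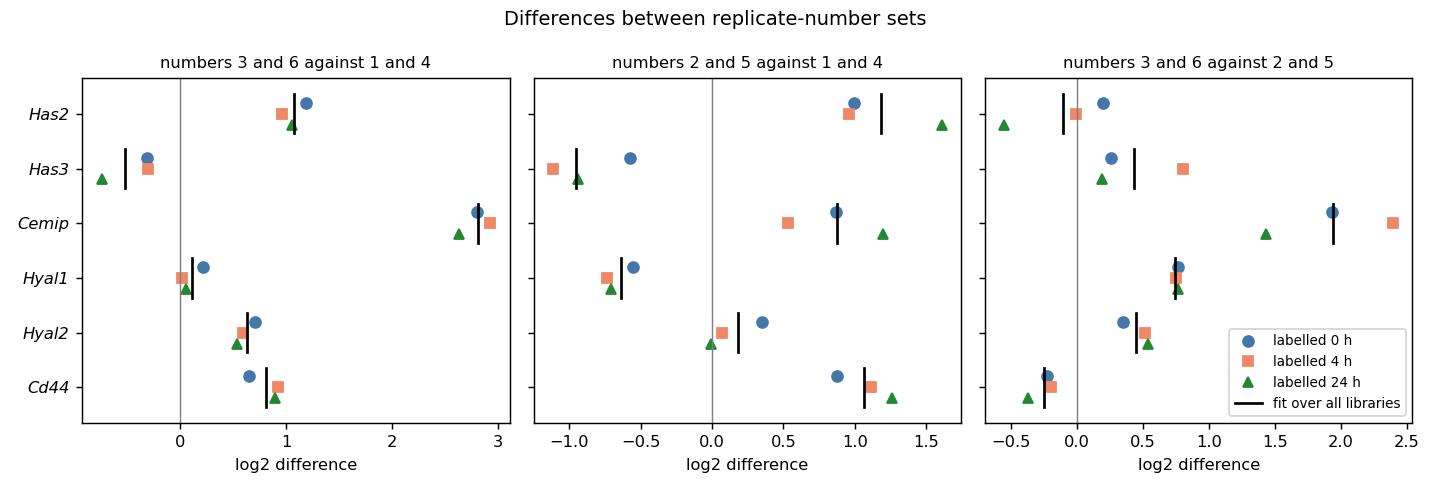
Log2 differences between the number sets for the 6 members kept. Symbols give the difference of the means of log2 CPM at each labelled time (2 libraries per set), and black lines give the fit over all 18 libraries. Cemip lay between 2.63 and 2.93 at the 3 labelled times in numbers 3 and 6 against 1 and 4, and Has3 was below 0 at each time in both comparisons with numbers 1 and 4.

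Many markers of preadipocytes and fibroblasts, cells known for making hyaluronan, were higher in the other sets than in numbers 1 and 4. Of 12 such genes 9 were kept. The libraries did not overlap for 8 of them in numbers 3 and 6 against 1 and 4 and for 5 in numbers 2 and 5 against 1 and 4, all higher (backgrounds as above). In numbers 3 and 6 against 2 and 5 only 2 of the 9 did not overlap, Col1a1 and Dcn, both higher, beside 14.2% of all genes higher. The 12 markers summed to 2594 to 3218 CPM in numbers 3 and 6, 2076 to 2803 CPM in numbers 2 and 5, and 1368 to 1572 CPM in numbers 1 and 4. Fn1 and Col1a1 were the largest parts of the sum, with medians of 1507 and 838 CPM in numbers 3 and 6. Below the filter, Dpp4 had 4 counts in all, Thy1 34 and Pi16 101. Pi16 went the other way, with medians of 0.108, 0.192 and 0.501 CPM in the same order of sets. The 9 brown adipocyte markers went both ways: 1 was higher (Adipoq) and 3 lower (Plin1, Fabp4 and Ucp1) without overlap in numbers 3 and 6 against 1 and 4, and 2 were higher and 4 lower in numbers 2 and 5 against 1 and 4. Their summed level was 3616 to 4359 CPM in numbers 3 and 6, 3271 to 3736 CPM in numbers 2 and 5, and 4241 to 4440 CPM in numbers 1 and 4. The part of these differences in those of Has2, Cemip, Hyal2 and Cd44 was not tested. In bulk RNA, fewer cells of a type and less RNA per cell cannot be told apart.

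Across the 18 libraries, which share the sets, Has2 and Cd44 were the closest members (Pearson r 0.937, Spearman rho 0.860), followed by Cemip and Hyal2 (r 0.900, rho 0.814). Has3 and Cd44 ran opposite (r -0.722). With the set means removed, r was 0.572 for Has2 and Cd44, 0.613 for Cemip and Cd44 and 0.526 for Has2 and Cemip, but only 0.120 for Cemip and Hyal2. These values describe 18 libraries in 3 clusters and carry no test. In numbers 2 and 5, the highest Has2, Cemip and Cd44 levels (9.95, 20.9 and 85.5 CPM) were all from 24 h replicate 5, the library rich in ribosomal RNA. The part of that library in the r values with set means removed was not tested. Among 11063 named genes with a mean log2 CPM of at least 1, those most like Cemip in log2 CPM were Timp2 (r 0.989), an inhibitor of matrix proteases, Aebp1 (0.989), a collagen-binding matrix protein, and Rspo2 (0.987), a secreted enhancer of WNT signalling. Those most like Cd44 were Il1r1 (0.988), the interleukin 1 receptor, Tnc (0.983), the matrix protein tenascin C, and Itpripl2 (0.980). For Has2 they were Emb (0.954), Timp1 (0.953) and Snai1 (0.953), a transcription factor of mesenchymal cells. Hyal2 went with Rcn1 (0.942), Ctps (0.938) and Pcbp4 (0.937). Hyal1 went with Arhgap26 (0.925), Rilpl1 (0.924) and Slc4a8 (0.923), and Has3 with Tmem38a (0.867), Ccdc138 (0.860) and Wdr19 (0.847). In Tnc the medians were 45.5, 95.1 and 14.5 CPM in numbers 3 and 6, 2 and 5, and 1 and 4, and in Rspo2 30.5, 12.4 and 9.57 CPM.

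By labelled time none of the 6 hyaluronan genes kept passed edgeR's quasi-likelihood test with Benjamini-Hochberg adjustment over all genes. At 4 h against 0 h, 0 of the 6 members kept were called, as were 0% of all 14788 genes, and none of the 6 had an unadjusted p under 0.05 (1.17% of all genes did). With the replicate number as a block, 2 of the 6 had one, Cd44 (edgeR adjusted p = 0.392) and Has2 (edgeR adjusted p = 0.484), as had 9.88% of all genes, and again 0 were called. Has2 had 6.16 ± 1.99 CPM at 4 h and 5.18 ± 1.81 CPM at 0 h (SD, n = 6), a log2 fold change of 0.24 (SE 0.32, 95% interval -0.43 to 0.90, adjusted p = 1.00 by edgeR). Cemip had 18.8 ± 18.9 CPM at 4 h and 14.6 ± 13.04 CPM at 0 h, log2 0.35 (SE 0.70, interval -1.12 to 1.82). Its SD nearly matched its mean because each labelled time holds the high libraries of numbers 3 and 6 beside the low ones. Cd44 had 57.8 ± 19.0 CPM at 4 h and 52.1 ± 13.8 CPM at 0 h, log2 0.15 (SE 0.26, interval -0.41 to 0.70). In Has3 the log2 fold change was -0.41 (SE 0.29, interval -1.03 to 0.21), in Hyal1 0.02 (SE 0.21, -0.42 to 0.47) and in Hyal2 0.05 (SE 0.17, -0.30 to 0.41). Compared within the same number, Cemip was higher at 4 h in 5 of 6 numbers, Has2 and Cd44 in 4, Hyal2 in 3, Hyal1 in 2 and Has3 in 1.

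At 24 h against 0 h, again 0 of 6 members and 0% of all genes were called, and none of the 6 had an unadjusted p under 0.05 (1.07% of all genes). With the block, 1 of the 6 had one, Cd44 (edgeR adjusted p = 0.571), as had 7.81% of all genes, and 0 of 6 members and 0.00676% of all genes were called. Has2 had 6.48 ± 2.95 CPM at 24 h and 5.18 ± 1.81 CPM at 0 h (SD, n = 6), log2 0.28 (SE 0.32, interval -0.40 to 0.95). Cemip had 19.3 ± 15.1 CPM at 24 h and 14.6 ± 13.04 CPM at 0 h, log2 0.41 (SE 0.70, interval -1.06 to 1.89), and Cd44 58.2 ± 21.5 and 52.1 ± 13.8 CPM, log2 0.15 (SE 0.27, interval -0.41 to 0.71). The remaining fold changes were 0.16 for Has3, 0.00 for Hyal1 and 0.06 for Hyal2. Within numbers, Cemip was higher at 24 h in 5 of 6, by at most 1.26 in log2 (number 5, where 24 h replicate 5 carried the excess of ribosomal RNA), and Has2, Has3 and Cd44 in 4. The Has2 differences were 0.69 and 0.75 in numbers 2 and 5, and between -0.10 and 0.30 in the other 4.

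At 24 h against 4 h, 0 of 6 members and 0% of all genes were called, and none of the 6 had an unadjusted p under 0.05 (0.926% of all genes). With the block, 1 of the 6 had one, Has3 (edgeR adjusted p = 0.921), as had 5.12% of all genes, and again 0 were called. Has3 had the largest fold change of the members, with 0.847 ± 0.344 CPM at 24 h and 0.555 ± 0.242 CPM at 4 h (SD, n = 6), log2 0.57 (SE 0.30, interval -0.07 to 1.21, edgeR adjusted p = 1.00). It was higher at 24 h in 6 of 6 numbers, by 0.07 to 1.15 in log2. The 1.15 was in number 5, from 4 counts at 4 h and 2 counts in 24 h replicate 5, the library rich in ribosomal RNA. The 0.663 CPM of Has3 in that library lay below the library's floor of 0.995 CPM for 3 counts. The log2 fold changes of Has2, Cemip, Hyal1, Hyal2 and Cd44 lay between -0.02 and 0.06. The intervals of Cemip reached past 1 in both directions in all 3 comparisons. With the replicate number as a block they were -0.03 to 0.64 at 4 h against 0 h, -0.02 to 0.65 at 24 h against 0 h and -0.33 to 0.35 at 24 h against 4 h. Blocked intervals left out 0 for Cd44 at 4 h (0.03 to 0.22) and 24 h (0.01 to 0.21), each against 0 h. They also left out 0 for Has2 at 4 h against 0 h (0.01 to 0.49) and Has3 at 24 h against 4 h (0.02 to 1.04). None of these was called after adjustment.

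**Figure D3:**
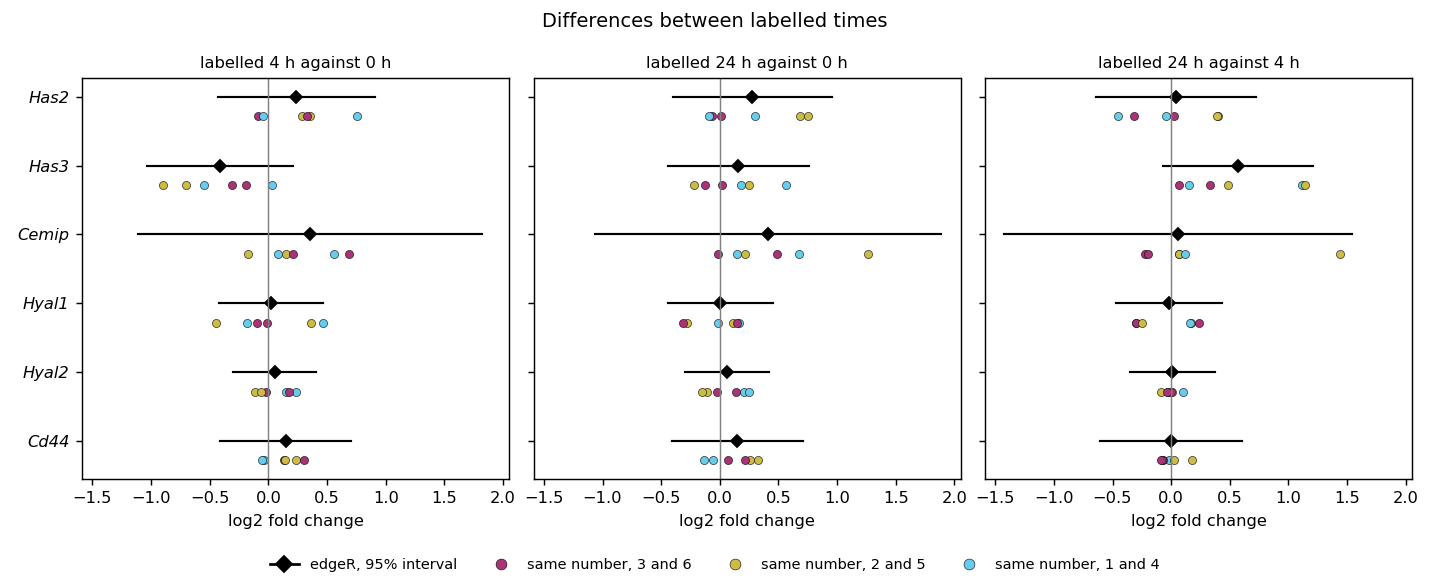
Log2 fold changes between labelled times for the 6 members kept. Diamonds and lines are edgeR estimates with 95% intervals over 18 libraries, and circles are differences within each replicate number, coloured by number set. The intervals are from the fit without the replicate number as a block, so they include the spread between number sets. All of them include 0, and those of Cemip are the widest, from -1.12 to 1.82 at 4 h against 0 h.

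The wider pathway was followed through 7 lists with 63 genes found in the table, of which 46 were kept, 40 of them other than the 7 members. None of the 40 was called by edgeR in any comparison of labelled times, with a median log2 fold change of 0.07 at 4 h and 0.02 at 24 h, each against 0 h, and -0.03 at 24 h against 4 h (0.01, -0.00 and -0.01 over all genes). Between sets, 18 of the 40 were higher and 7 lower without overlap in numbers 3 and 6 against 1 and 4, with a median log2 difference of 0.14, beside 19.1% higher and 19.5% lower over all genes. In numbers 2 and 5 against 1 and 4 the counts were 11 higher and 4 lower (median 0.08), beside 17.4% and 18% of all genes. In numbers 3 and 6 against 2 and 5 they were 9 higher and 10 lower (median 0.03), beside 14.2% and 15.5%. Over all genes kept the median difference was within 0.005 of 0 in each comparison.

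Other depolymerising enzymes were few. Tmem2, also named Cemip2, a cell-surface hyaluronidase, had medians of 43.1, 42.0 and 49.1 CPM in numbers 3 and 6, 2 and 5, and 1 and 4, and its sets overlapped. Hyal3 had 0.801, 0.984 and 1.18 CPM in the same order, Hyal4, Hyal5 and Spam1 had 0 counts and Hyal6 had 1. Hexa and Gusb, lysosomal exoglycosidases that finish the breakdown from the chain's end, were highest in numbers 3 and 6. Hexa, a subunit of beta-hexosaminidase, had medians of 86.8, 68.8 and 61.3 CPM in the same order, with no overlap between any sets. Gusb, beta-glucuronidase, had 36.5, 19.9 and 26.0 CPM, also with no overlap and lowest in numbers 2 and 5, as Hyal1 was.

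Among 6 receptors kept, 4 including Cd44 were higher without overlap in numbers 3 and 6 than in 1 and 4, and 1 was lower, beside 19.1% and 19.5% of all genes. Tlr4, a toll-like receptor that also responds to hyaluronan fragments, had medians of 18.4, 31.96 and 9.90 CPM in numbers 3 and 6, 2 and 5, and 1 and 4, with no overlap, and like Cd44 its median was highest in numbers 2 and 5. Tlr2 had 13.3, 10.4 and 7.97 CPM and Layn, the layilin gene, 5.95, 5.58 and 3.84 CPM. Hmmr, a hyaluronan-binding protein of the mitotic spindle, was lower in both other sets than in numbers 1 and 4, with medians of 46.9, 45.9 and 63.2 CPM. Lyve1, the receptor of lymphatic vessels, had 2 counts in all.

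Of the matrix proteins that bind hyaluronan, 9 were kept. Vcan, the proteoglycan versican, was the most abundant of those named, with medians of 311, 411 and 186 CPM in numbers 3 and 6, 2 and 5, and 1 and 4, and no overlap. Itih2, a heavy chain that is linked to hyaluronan, had 9.02, 4.38 and 3.83 CPM, higher in numbers 3 and 6 than in 1 and 4 without overlap. Ncan, the brain proteoglycan neurocan, was low throughout, with 0.115, 0.383 and 1.09 CPM. It was lower in both other sets than in numbers 1 and 4.

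In UDP-sugar supply the genes split. Ugdh, which makes UDP-glucuronic acid, had medians of 64.5, 91.9 and 66.5 CPM in numbers 3 and 6, 2 and 5, and 1 and 4, and Uap1, which makes UDP-N-acetylglucosamine, 39.9, 55.3 and 39.8 CPM. Both were higher in numbers 2 and 5 than in 1 and 4 without overlap. Gfpt2, an entry enzyme of the hexosamine route, had 8.07, 14.4 and 6.36 CPM, again highest in numbers 2 and 5. Uap1l1, a relative of Uap1, had 33.4, 19.4 and 14.4 CPM, and Pgm2, a phosphoglucomutase, 71.4, 97.7 and 146 CPM, in opposite orders and each without overlap between any sets.

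Among partners of CD44, Spp1, the gene of its ligand osteopontin, had medians of 293, 183 and 102 CPM in numbers 3 and 6, 2 and 5, and 1 and 4, with no overlap. Mmp9, a protease that binds CD44 at the cell surface, had 9.63, 3.21 and 2.72 CPM, and stood apart in numbers 3 and 6. Cd74, which pairs with CD44 in signalling, had 1.71, 15.2 and 15.2 CPM, lower in numbers 3 and 6 than in either other set.

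**Figure D4:**
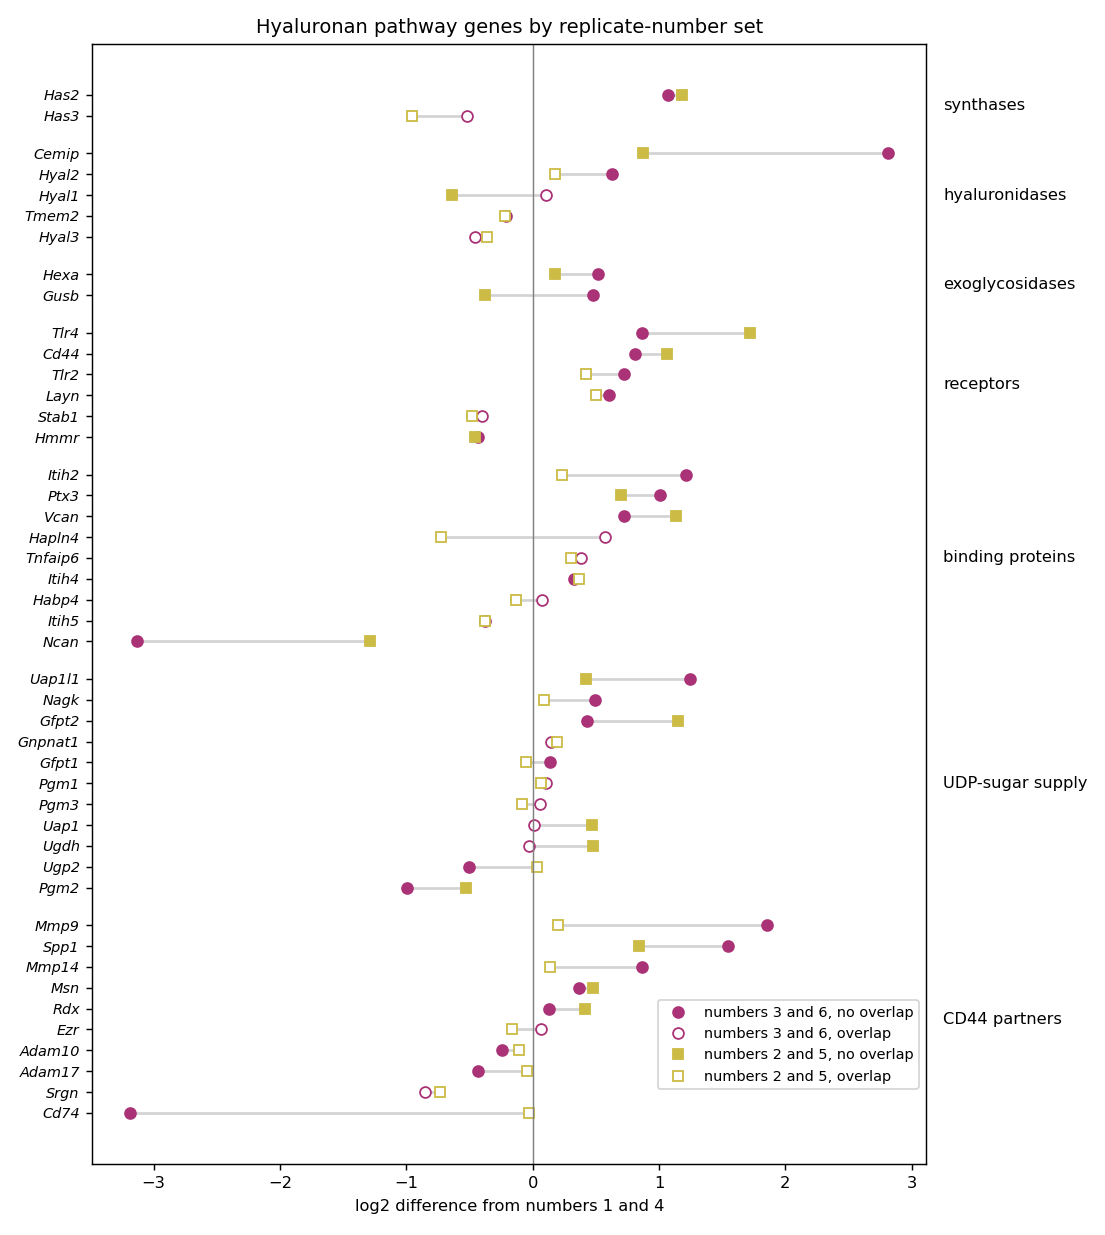
Log2 differences of numbers 3 and 6 (circles) and 2 and 5 (squares) from numbers 1 and 4 for pathway genes kept, members included, grouped by list. Filled symbols mark genes whose libraries did not overlap numbers 1 and 4. Cemip at 2.82 was the largest difference above 0, and Cd74 at -3.19 and Ncan at -3.13 lay farthest below 0. Ncan rests on 184 counts in all, with a median of 0.115 CPM in numbers 3 and 6.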

How the data were processed

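Total RNA of 18 samples was made into libraries with strand selection and ribosomal RNA depletion and sequenced as read pairs, per the labels' protocols. The deposited values are expected counts for each gene, which the authors made with salmon, per the labels. For salmon, the version, strand setting and annotation were not given in the sources used here. Build mm10 and the tools limma and edgeR are named, per the submitters' processing notes. Of the values above 0, 27.4% were not whole.

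Expected counts were rounded. Genes were kept by filterByExpr (minimum count 10, minimum total 15), leaving 14788 genes with at least 99.9% of counts, and TMM factors (trimmed mean of M values) were applied. CPM used the scaled totals and log2 CPM a prior count of 2. Has1, below the filter, was scaled with the same factors. Labelled times were tested over all 18 libraries by the robust quasi-likelihood F-test of edgeR, two-sided, adjusted by Benjamini-Hochberg over all genes with a threshold of 0.05. Set differences came from an edgeR fit with labelled time and number set. "No overlap" means that every library of a set lies above, or below, every library of the other. Positions and exon lengths are from GENCODE M21 (mm10), in which 45143 of 45706 identifiers were found. The functions were tested on simulated data. Tools were edgeR 4.0.16, DESeq2 1.42.0 and limma 3.58.1 in R 4.3.3, and Python 3.11.15. Alternatives were a replicate block, other scalings, DESeq2, limma-voom, no filter and leaving out each library.

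Named genes were all 7 members, up to 3 kept genes per pathway list with the largest range of set medians, and the 3 genes most like each member by Pearson r. Other genes named (Ugdh, Uap1, Hmmr, those at or near 0 counts, Fos, Nr4a1, Dio2, Ppargc1a, markers and overlapping neighbours) were chosen after values were seen. A gene of the lists that this rule names is not reported here. Members and lists were chosen with earlier results of these data known. Same-numbered libraries at different times, as read from the titles, correlated between 0.297 and 0.718 in all 18 pairs, above the bound of 0.1. Libraries with numbers 3 apart correlated between 0.237 and 0.688, also above it. The check therefore shows the sets and cannot show a pairing by single number, and no label ties a number to a culture. Nor does any label say that the libraries of a group are separate cultures: the p-values reflect spread among these libraries alone, and that spread may be technical. Floors of 3 counts cover counting error only.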

Additional observations from a re-analysis of the deposited data

Results flagged for a closer look

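Among 36 groups of 6 libraries examined (6 members, by labelled time and by number set), 2 held a library far from the others. The rule's nominal rate is about 1 group in 20. That rate does not hold here, because the groups share libraries and those by labelled time mix the number sets. Cemip in 24 h replicate 5 had 20.9 CPM, while the nearest library of numbers 2 and 5 had 8.80 CPM and the lowest 7.55 CPM. That library had the lowest total and 41.5% of its counts in transcripts that collect ribosomal RNA, and the part of this in its Cemip level was not tested. Has2 in 4 h replicate 6 had 8.37 CPM, while the nearest library of numbers 3 and 6 had 6.86 CPM and the lowest 6.42 CPM.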

How the results depend on the processing

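None of the 6 members was called between labelled times under any alternative run. With the replicate block, edgeR called 1 gene at 24 h against 0 h, not a member, instead of 0, and the block changed no member's call. Leaving out each library gave 0 to 1 genes called at 4 h against 0 h and 0 to 1 at 24 h against 4 h, the 1 in each without 4 h replicate 3. Besides 173, 158 and 137 genes with unadjusted p under 0.05 by edgeR at 4 h against 0 h, 24 h against 0 h and 24 h against 4 h, DESeq2 gave 190, 160 and 121 and limma-voom 224, 154 and 191, with 0 called by either.

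Signs of small log2 fold changes turned, and the cause was not tested. At 24 h against 0 h, Hyal1 was -0.036 with the replicate block and -0.13 with library totals, Hyal2 -0.0832 and Cd44 -0.073 with library totals. At 24 h against 4 h, Has2 was -0.0086 with the block and -0.14 with totals, Cemip -0.11 and Hyal2 -0.13 with totals, and Cd44 -0.011 with the block, -0.000539 with DESeq2 size factors, -0.21 with totals and -0.0418 with limma-voom. Library totals themselves moved the median gene by -0.17 at 24 h against 0 h and -0.16 at 24 h against 4 h, by 0.17 in numbers 3 and 6 against 1 and 4, and by 0.25 in numbers 3 and 6 against 2 and 5, where Cd44 turned to 0.03. With totals, 15.4% of genes did not overlap in numbers 2 and 5 against 1 and 4.

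Without single libraries the fold changes at 4 h against 0 h ranged from -0.15 to 0.77 in Cemip, -0.10 to 0.12 in Hyal1 and -0.037 to 0.16 in Hyal2. At 24 h against 0 h they ranged from -0.033 to 0.28 in Has3, -0.0010 to 0.83 in Cemip, -0.12 to 0.089 in Hyal1 and -0.030 to 0.17 in Hyal2. At 24 h against 4 h they ranged from -0.13 to 0.21 in Has2, -0.35 to 0.56 in Cemip, -0.13 to 0.069 in Hyal1, -0.082 to 0.10 in Hyal2 and -0.13 to 0.12 in Cd44. The set difference of Has2 in numbers 3 and 6 against 2 and 5 ranged from -0.15 to 0.02, and no other set difference of a member changed sign without a library. Without 24 h replicate 5, Cemip differed by 0.68 in numbers 2 and 5 against 1 and 4 and by 2.13 in numbers 3 and 6 against 2 and 5. Depth limits Has1 and Has3 most.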
